A study of Mus musculus with 6 samples.

Results

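CC chemokines are small secreted proteins with adjacent cysteines that attract leukocytes, and 10 of their genes (Ccl2, Ccl3, Ccl4, Ccl5, Ccl6, Ccl7, Ccl9, Ccl17, Ccl22 and Ccl24) were followed by symbol among 46078 gene rows. All 10 had a row and passed the filter on low counts, so each was tested. RNA was sequenced after capture of polyadenylated transcripts from alveolar macrophages, the phagocytes that reside in the airspaces, which had been sorted out of lungs of mice given no treatment. Mice of the Car4fl/fl-CD11cCre genotype (3 mice) carried loxP-flanked alleles of Car4, the gene of the membrane-anchored carbonic anhydrase 4, with a Cre recombinase under control of CD11c. Mice of the Car4fl/fl genotype (3 mice) carried the same flanked alleles without the Cre and served as controls. CD11c is the integrin chain encoded by Itgax, which dendritic cells also carry. No group had the Cre with unflanked Car4, so an effect of the transgene and of the deletion cannot be told apart. The sources used here do not give strain, age, sex or the sorting gate.

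CC chemokines are grouped by the receptor that leukocytes use to sense them. In the mouse, Ccl2 and Ccl7 call monocytes through Ccr2, Ccl3, Ccl5, Ccl6 and Ccl9 act on Ccr1, Ccl4 is a close relative of Ccl3, Ccl17 and Ccl22 attract Ccr4-bearing T cells, and Ccl24 is an eotaxin that attracts eosinophils through Ccr3. Alveolar macrophages are a known source of Ccl6 at rest, whereas Ccl17, Ccl22 and Ccl24 are known products of macrophages and dendritic cells exposed to IL-4 or IL-13, and Ccl2, Ccl3 and Ccl4 are known targets of NF-kB.

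The libraries held 53824475 to 65443314 counts, at which 3 counts correspond to 0.0465 to 0.0557 CPM (library-scaled counts with TMM factors). Intervals and floors cover counting error only. Car4 itself had 40.2, 46.9 and 36.3 CPM in the Cre libraries, against 499, 385 and 270.4 CPM in the control libraries, with every Cre library below every control library. The alveolar macrophage markers were present throughout, with Siglecf at 547 ± 71.7 CPM in Cre libraries and 708 ± 44.5 CPM in control libraries (SD, n = 3 each). They were not all alike between genotypes. Of the 15 markers 3 were higher without overlap (Marco, Itgax and Chil3) and 3 lower (Siglecf, Car4 and Cidec), against 8.63% and 9.22% of all tested genes. The Cre libraries differed among themselves: the first principal component, which took 47% of the variance, placed Cre library 1 near its origin at -0.4, Cre library 2 at -39.8, Cre library 3 at -39.4 and the control libraries between 22.5 and 29.7. Results that rest on single Cre libraries are therefore given with each library's value.

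Ccl9, Ccl17 and Ccl24 had the largest differences among the 10 genes, all with higher means in Cre macrophages, and for Ccl9 and Ccl17 the difference lay mostly in Cre libraries 2 and 3. Ccl6, by far the most abundant member, had a modestly higher mean, and the remaining members had values that overlapped between the genotypes. By edgeR's quasi-likelihood test none of the 10 passed an adjusted p of 0.05 over 15147 tested genes, where 0.0132% of all genes passed. Before adjustment, 5 members (Ccl4, Ccl6, Ccl9, Ccl17 and Ccl24) had an edgeR p under 0.05 with a higher mean and 0 with a lower one, against 6.54% of all tested genes higher and 6.28% lower. Ccl24, with 1, 2 and 9 counts in the controls, passed the filter only through the Cre libraries. It could thus enter such tallies only as higher. DESeq2 called 3 members higher (Ccl6, Ccl9 and Ccl17) and 0 lower, against 2.38% and 1.42% of genes. It gave Ccl24, with 46, 67 and 2176 counts in the Cre libraries, neither a p nor an adjusted p. A fit with the replicate number as a block called 1 member, Ccl24, against 0.0528% of genes called higher, and a fit that kept genes of low count called 3 (Ccl9, Ccl17 and Ccl24), against 1.23%.

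**Figure D1:**
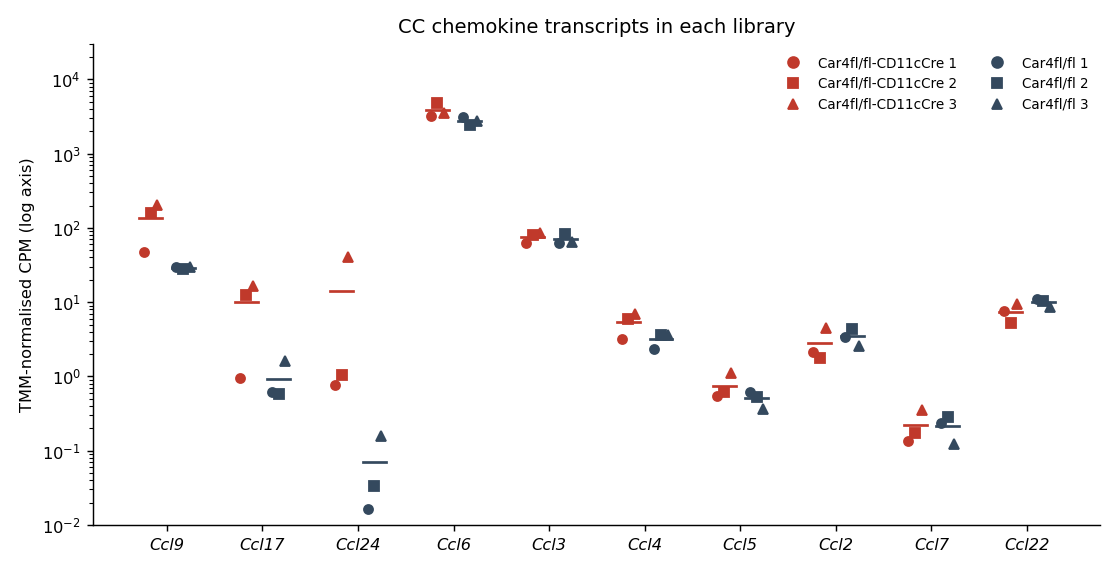
TMM-normalised CPM of the 10 CC chemokines on a log axis, 1 point per library, with Car4fl/fl-CD11cCre in red on the left and Car4fl/fl in dark blue on the right of each gene and a bar at the group mean. Ccl9 and Ccl24 separate the groups, Ccl17 is high in Cre libraries 2 and 3 (12.6 and 16.4 CPM), and Ccl6 lies between 2441 and 4845 CPM.

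Most of these genes sit in clusters. In GENCODE M21 (GRCm38), Ccl2 and Ccl7 are neighbours on chromosome 11, 8258 bases apart, and farther along the same chromosome Ccl5, Ccl9, Ccl6, Ccl3 and Ccl4 follow each other. Ccl9 (83572919 to 83578636, minus strand) and Ccl6 (83587882 to 83593087, minus strand) are 9245 bases apart. Ccl22 and Ccl17 are neighbours on the plus strand of chromosome 8, 58753 bases apart, and Ccl24 lies on chromosome 5 (135569937 to 135573049, minus strand). No exon of a member overlapped an exon of another gene in this annotation. No stretch of 50 bases in the transcripts of 9 members occurred in those of another gene, and for Ccl9 59 of 2996 such stretches did, so few of its reads could belong to another gene.

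Promoters are shown for these neighbouring pairs because Ccl9 and Ccl17 are among the members with the largest fitted differences and Ccl6 and Ccl22 are their neighbours. RefSeq (GRCm38.p6) gave a promoter of 300 bases, 250 before and 50 after the gene's start, for 5 of the 10 members: Ccl3, Ccl6, Ccl9, Ccl17 and Ccl22. Capitals mark matches on either strand to a kB-type motif (GGG, any 5 bases, CC) or a STAT6-type motif (TTC, any 4 bases, GAA). These promoters are written 5′ to 3′ on the strand of the gene, at chr11:83578587-83578886, minus strand for Ccl9 and chr11:83593038-83593337, minus strand for Ccl6.
Ccl9: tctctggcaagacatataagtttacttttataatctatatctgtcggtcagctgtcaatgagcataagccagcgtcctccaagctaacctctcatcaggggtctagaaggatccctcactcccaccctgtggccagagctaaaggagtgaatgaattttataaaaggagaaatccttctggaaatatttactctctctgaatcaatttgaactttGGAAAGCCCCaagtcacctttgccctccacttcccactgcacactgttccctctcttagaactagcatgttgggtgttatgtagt
Ccl6: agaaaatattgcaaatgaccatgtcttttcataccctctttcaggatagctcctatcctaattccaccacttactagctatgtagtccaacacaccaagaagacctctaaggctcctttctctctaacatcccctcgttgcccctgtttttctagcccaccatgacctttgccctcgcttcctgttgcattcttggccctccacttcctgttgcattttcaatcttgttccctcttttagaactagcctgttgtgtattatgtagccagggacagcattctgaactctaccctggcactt
The Ccl17 promoter lies at chr8:94810203-94810502, plus strand, and that of Ccl22 at chr8:94745434-94745733, plus strand.
Ccl17: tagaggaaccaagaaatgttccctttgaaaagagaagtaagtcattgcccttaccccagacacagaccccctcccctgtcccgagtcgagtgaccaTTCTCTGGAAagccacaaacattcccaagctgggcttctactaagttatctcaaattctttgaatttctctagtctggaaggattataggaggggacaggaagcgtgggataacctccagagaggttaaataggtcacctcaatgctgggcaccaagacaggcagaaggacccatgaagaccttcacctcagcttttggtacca
Ccl22: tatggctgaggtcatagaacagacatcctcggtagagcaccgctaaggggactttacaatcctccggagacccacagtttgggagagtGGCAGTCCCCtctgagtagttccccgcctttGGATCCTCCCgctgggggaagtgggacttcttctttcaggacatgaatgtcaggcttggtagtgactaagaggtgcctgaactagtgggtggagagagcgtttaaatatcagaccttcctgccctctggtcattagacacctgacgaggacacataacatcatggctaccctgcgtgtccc
The Ccl9 window held 1 kB-type match, GGAAAGCCCC, which starts 35 bases before the gene's start, and the Ccl6 window none. A stretch of 74 alignment columns was 79.7% identical between them. The Ccl17 window held 1 STAT6-type match, TTCTCTGGAA, which starts 154 bases before the start, and no kB-type match. In the Ccl22 window there were 2 kB-type matches, GGCAGTCCCC and GGATCCTCCC, 162 and 131 bases before the start, and no STAT6-type match. The Ccl3 window held neither. Among 32851 RefSeq promoters of the same length 50.8% held a kB-type match and 6.95% a STAT6-type match, so these matches are descriptions of the windows only.

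Ccl9 and Ccl6 encode ligands of Ccr1 that attract monocytes and other myeloid cells. Ccl9 had 47.1, 159 and 204 CPM in Cre libraries 1, 2 and 3, against 29.6, 27.6 and 30.1 CPM in the control libraries. Every Cre library exceeded every control library, and Cre library 1 was much nearer to the controls than the others. Relative to the control mean the Cre libraries stood at 1.62, 5.46 and 6.998 times. The spread within a group was unequal as well, with a coefficient of variation of 59.1% over the Cre libraries and 4.69% over the controls. On the log2 scale the fitted difference of Ccl9 was 2.23 ± 0.45 (SE), for which edgeR gave an adjusted p of 0.147, so it was not called. Without Cre library 1 edgeR did call it, at 2.63 with an adjusted p of 0.000192, and DESeq2 called it with all libraries (adjusted p 0.00639).

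Ccl6 had 3194, 4845 and 3485 CPM in the Cre libraries, against 3129, 2441 and 2777 CPM in the control libraries. The groups did not overlap, but Cre library 1 exceeded control library 1 by little, and Cre library 2 carried most of the difference. The fitted log2 difference of Ccl6 was 0.47 ± 0.16 (SE), and its adjusted p was 0.296 in edgeR and 0.0287 in DESeq2. Without Cre library 2 the log2 fold change was 0.26. Of the 10 members, 3 (Ccl6, Ccl9 and Ccl24) had all Cre values above all control values and 0 the reverse, against 8.63% and 9.22% of all tested genes. For Ccl24 this was fixed by the filter, which it passed only through the Cre libraries.

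Ccl6 made up 96.2, 94.8 and 90.5% of the CPM summed over the 10 members in the Cre libraries, against 96.6, 94.96 and 96.1% in the controls. The sum without Ccl6 was 125, 266 and 367 CPM in the Cre libraries, against 111, 129.6 and 112 CPM in the controls. Cre libraries 2 and 3 thus held more of the other CC chemokine transcripts than any control, and Cre library 3 had the lowest Ccl6 share of the 6 libraries. Per kilobase of exon, Ccl6 ranked 13 among all tested genes with an annotated length, at 2140 ± 491 CPM per kb in Cre libraries and 1550 ± 192 CPM per kb in control libraries (SD, n = 3 each).

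Ccl17 and Ccl22, the ligands of Ccr4, had a higher mean in Cre libraries (Ccl17) and a lower one (Ccl22), and neither was called by edgeR. Ccl17 had 0.947, 12.6 and 16.4 CPM in Cre libraries 1, 2 and 3, against 0.614, 0.582 and 1.601 CPM in the control libraries. Cre library 1 lay within the control range, below control library 3, whereas Cre libraries 2 and 3 stood at 13.6 and 17.6 times the control mean. The fitted log2 difference of Ccl17 was 3.42 ± 0.92 (SE), and its adjusted p was 0.192 in edgeR and 0.0426 in DESeq2. Without Cre library 1 it was 3.96, with an adjusted p of 0.0053 in edgeR. Without that library edgeR called 2 members higher, Ccl9 and Ccl17, against 1.59% of all genes tested.

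Ccl22 had 7.67, 5.16 and 9.42 CPM in the Cre libraries, against 10.9, 10.2 and 8.61 CPM in the control libraries. The groups overlapped through Cre library 3 and control library 3. edgeR fitted a log2 difference of -0.42 ± 0.21 (SE) for Ccl22 (adjusted p 0.463). Cre library 2, which was among the highest for Ccl17, was the lowest of all libraries for Ccl22.

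Dendritic cells are another known source of Ccl17 and Ccl22. Of 11 dendritic cell markers 8 were above control, and their summed level was 22.5 to 32.3 CPM in Cre libraries and 19.3 to 27.8 CPM in control libraries, with none at 0 in every library. Flt3, the growth factor receptor that marks dendritic cells, had 0.406, 0.248 and 0.557 CPM in the Cre libraries, against 0.166, 0.266 and 0.211 CPM in the control libraries. Clec9a, a receptor of cross-presenting dendritic cells, averaged 2.87 ± 0.551 CPM in Cre libraries and 5.06 ± 1.25 CPM in control libraries (SD, n = 3 each), without overlap. Of the remaining dendritic cell markers 2 did not overlap in the other direction, against 8.63% of all tested genes higher without overlap and 9.22% lower. Fscn1, the actin bundler of mature dendritic cells, had 1.03, 1.596 and 2.80 CPM in the Cre libraries, against 0.432, 0.416 and 0.669 CPM in the control libraries, and the lectin gene Mgl2 had 1.83, 1.05 and 4.55 CPM, against 0.697, 0.931 and 0.827 CPM. DESeq2 called these 3 markers (adjusted p 0.0142 for Clec9a, 0.000968 for Fscn1 and 0.0138 for Mgl2) and edgeR none. By DESeq2 2.38% of all genes were called higher and 1.42% lower. In bulk RNA, more cells of a type and more RNA per cell cannot be told apart, and the part of these cells in the Ccl17 values was not tested.

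Ccl24, the eotaxin that acts on Ccr3, was near the limit of detection in control macrophages. Cre libraries 1, 2 and 3 held 46, 67 and 2176 counts of it, against 1, 2 and 9 counts in the control libraries, or 0.778, 1.04 and 40.4 CPM against 0.0166, 0.0333 and 0.158 CPM. The groups did not overlap, and Cre library 3 stood far above the other Cre libraries. Control libraries 1 and 2 were under the floor of 3 counts, with exact Poisson 95% intervals of 0.0253 to 5.57 and 0.242 to 7.22 counts. The fitted log2 fold change of 7.65 ± 2.03 (SE) had an adjusted p of 0.189 in edgeR. Without Cre library 3 it was 3.70 ± 0.65 (SE) with an adjusted p of 0.211. Eosinophil, mast cell and basophil markers summed to 0.790 to 1.15 CPM in Cre libraries and 0.933 to 1.56 CPM in control libraries, most of it Gata2. Because the macrophages had been sorted, these sums cannot show whether the cells that Ccl24 attracts were more or less common in the lung. Of these 10 markers Mcpt8 was at 0 in every library, and 1 passed the filter, Gata2, which was below control.

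**Figure D2:**
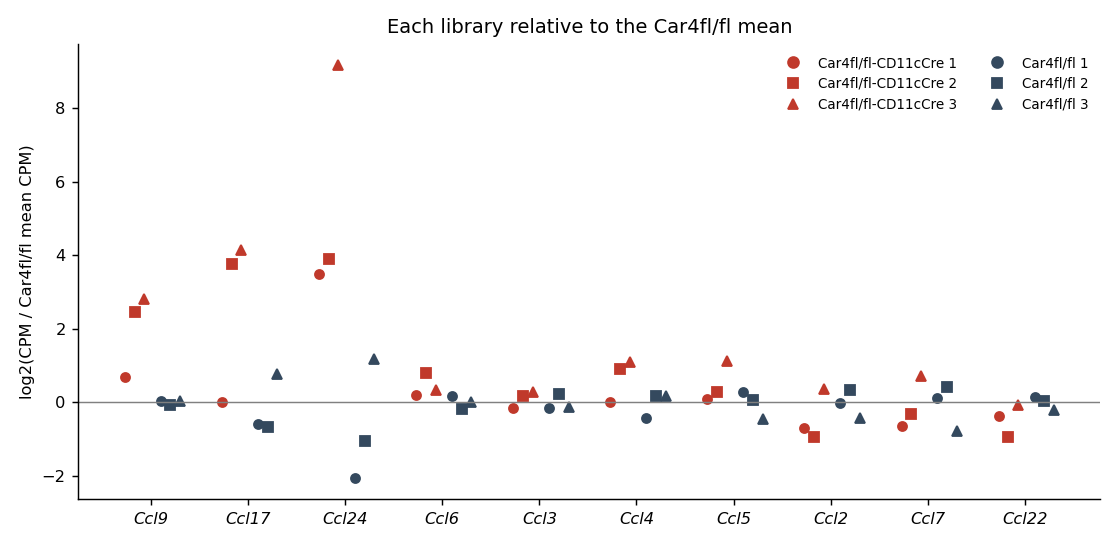
Log2 ratio of each library's CPM to the Car4fl/fl mean for the 10 CC chemokines, with Car4fl/fl-CD11cCre libraries in red on the left and Car4fl/fl libraries in dark blue on the right of each gene, and a line at equality. Cre libraries 2 and 3 lie at 2.45 and 2.81 for Ccl9 and at 3.76 and 4.13 for Ccl17, and Cre library 3 lies at 9.19 for Ccl24.

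Ccl3, Ccl4 and Ccl5, the macrophage inflammatory proteins and RANTES, had smaller differences. Ccl3 had 62.5, 79.7 and 84.5 CPM in the Cre libraries, against 63.0, 82.4 and 64.7 CPM in the control libraries. The groups overlapped throughout, and the log2 fold change of 0.11 ± 0.14 (SE) was smaller than its error. Ccl4, which adjoins Ccl3 and encodes a close relative, had 3.19, 5.98 and 6.84 CPM in the Cre libraries, against 2.34, 3.57 and 3.61 CPM in the control libraries. Cre libraries 2 and 3 exceeded every control, and Cre library 1 did not. For Ccl4 the log2 difference was 0.75 ± 0.30 (SE), and edgeR's adjusted p 0.351. Ccl5 had 0.541, 0.620 and 1.10 CPM in the Cre libraries, against 0.614, 0.532 and 0.370 CPM in the control libraries. Only Cre library 3 stood above the control range by a clear margin, and the log2 fold change of 0.56 ± 0.35 (SE) had an adjusted p of 0.573 in edgeR. T cells and NK cells are a known source of Ccl5. Their markers had 7 of 11 tested members above control, with none at 0 in every library, and summed to 233 to 297 CPM in Cre libraries and 355 to 407 CPM in control libraries. Most of that sum was Cd2, at 268 ± 36.5 CPM in Cre libraries and 369 ± 28.7 CPM in control libraries. Without overlap 4 markers were higher (Cd3e, Cd3g, Cd8a and Cd4) and 1 lower (Cd2), against 8.63% and 9.22% of all tested genes. The T cell receptor chain gene Cd3e averaged 0.438 ± 0.128 and 0.299 ± 0.0293 CPM in Cre and control libraries (SD, n = 3 each). Cd4 had 0.338, 2.77 and 2.47 CPM in the Cre libraries, against 0.299, 0.283 and 0.158 CPM in the control libraries. DESeq2 called Cd4 higher and Cd2 lower (adjusted p 0.000276 and 0.0014), against 2.38% and 1.42% of all genes. The part of these cells in the Ccl5 values was not tested.

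Ccl2 and Ccl7, the monocyte attractants that act on Ccr2, were low in both genotypes. Ccl2 had 2.15, 1.78 and 4.44 CPM in the Cre libraries, against 3.42, 4.36 and 2.59 CPM in the control libraries. Its highest value was in Cre library 3 and its lowest in Cre library 2, so the groups overlapped fully, and the log2 fold change was -0.31 ± 0.36 (SE). Ccl7 had 8, 11 and 19 counts in the Cre libraries, against 14, 17 and 7 counts in the control libraries, or 38 in each group. Its log2 fold change of 0.02 ± 0.50 (SE) took either sign depending on the processing.

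The members also differed between Cre libraries as a group. Cre library 3 was above every control for 9 members and below every control for 0, against 27.1% and 28.9% of all tested genes. Cre library 2 was above for 6 members and below for 2 (29.6% and 30.7% of genes). Cre library 1 was above for 3 and below for 3 (22.8% and 23.8% of genes). Ccl24, which passed the filter only through the Cre libraries, is among those above in each. The median log2 ratio to the control mean over the 10 members was 0.02, 0.55 and 0.92 in Cre libraries 1, 2 and 3. Over the fitted values 8 members were above control and 2 below, with a median log2 fold change of 0.52, beside -0.002 over all tested genes.

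**Figure D3:**
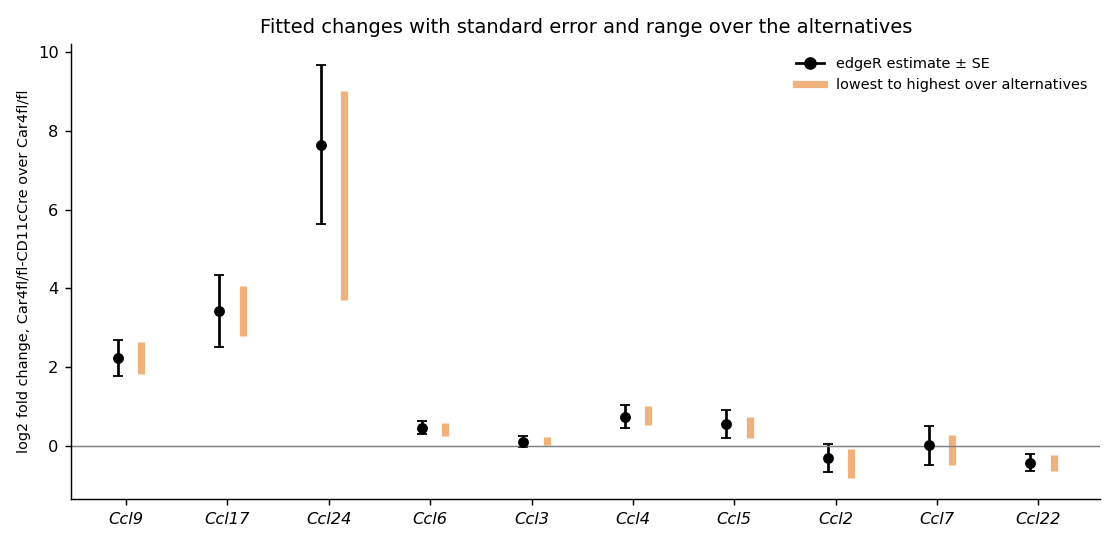
Fitted log2 fold change, Car4fl/fl-CD11cCre over Car4fl/fl, of the 10 CC chemokines, with black points and bars for the edgeR estimate and its standard error and orange bars for the lowest to highest value over the alternatives. Ccl24 spans 3.70 to 9.01, whereas Ccl7 crosses 0.

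Levels per kilobase of exon gave the same leading order in both genotypes for Ccl6 and Ccl3. In Cre libraries Ccl6 led at 2140 CPM per kb, followed by Ccl3 at 98.6, Ccl9 at 44.8, Ccl17 at 19.4, Ccl24 at 10.9, Ccl4 at 8.09, Ccl22 at 3.19, Ccl2 at 2.45, Ccl5 at 0.784 and Ccl7 at 0.274 CPM per kb. Between neighbours in this order the library ranges overlapped for Ccl9 and Ccl17, Ccl17 and Ccl24, Ccl24 and Ccl4, and Ccl22 and Ccl2. The place of Ccl24 rested on Cre library 3, with 40.4 CPM against 0.778 and 1.04 CPM in Cre libraries 1 and 2. In those libraries Ccl24 lay below Ccl4, Ccl22 and Ccl2 per kb. Ccl17 likewise lay below Ccl4 and Ccl22 per kb in Cre library 1. In control libraries Ccl6 led at 1550 CPM per kb, followed by Ccl3 at 91.5, Ccl9 at 9.56, Ccl4 at 4.81, Ccl22 at 4.26, Ccl2 at 3.04, Ccl17 at 1.81, Ccl5 at 0.526, Ccl7 at 0.266 and Ccl24 at 0.0536 CPM per kb. There the ranges overlapped between Ccl4 and Ccl22, between Ccl22 and Ccl2, and between Ccl2 and Ccl17. Ccl24 was thus the lowest of the 10 in control macrophages.

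For Ccl6, the most abundant member, the tested genes of most similar pattern were Aen, Vipas39 and Irgm1, with a Pearson r of 0.997, 0.994 and 0.992 on log2(CPM + 0.5) over the 6 libraries. For Ccl9, the member of smallest p, these were Adgre5, H2-M2 and Marcks, with r of 0.996, 0.995 and 0.995. The search covered 9463 genes, and the libraries share their genotype groups, so these values only describe likeness. H2-M2, a non-classical MHC gene, had 2.28, 27.7 and 50.4 CPM in the Cre libraries, against 0.299, 0.233 and 0.088 CPM in the control libraries.

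Among 13 other CC chemokines Ccl8 stood out, although it did not pass the filter. In the mouse Ccl8 is a ligand of Ccr8. It had 9, 76 and 119 counts in Cre libraries 1, 2 and 3, against 1, 0 and 1 in the control libraries. The Cre libraries did not overlap with the controls and had the order of Ccl9 and Ccl17, with library 1 lowest. The summed counts of 204 in Cre libraries and 2 in control libraries, scaled by library size with TMM factors, gave a ratio of 102 (exact binomial 95% interval 27.8 to 846, counting error only). Ccl8 was called by DESeq2 (adjusted p 2.54e-05), against 2.38% of genes called higher. Once genes of low count were kept, edgeR called it (adjusted p 0.00253), against 1.23% called higher. It also passed the filter of edgeR when certain libraries were left out. There edgeR's adjusted p was 0.0032 without Cre library 1, where 1.59% of genes were called higher. Without control library 1, 2 and 3 it was 0.462, 0.468 and 0.152, and Ccl8 was not called. With so few control counts Ccl8 could pass that filter only through the Cre libraries, and thus enter only as higher. Of the other CC chemokines Ccl12, Ccl25 and Ccl27a were tested, and edgeR and DESeq2 called 0 of these 3, while Ccl19, Ccl21b and Ccl21c were at 0 in every library. Ccl25 averaged 3.67 ± 0.320 CPM in Cre libraries and 3.20 ± 0.202 CPM in control libraries (SD, n = 3 each), and shares 204 of its 7445 exon bases with Elavl1 on the opposite strand, where reads of both genes could be mixed. Ccl12 averaged 0.169 ± 0.0292 and 0.151 ± 0.0812 CPM, and Ccl27a, of which near-identical copies exist, 0.336 ± 0.0450 and 0.503 ± 0.122 CPM, in Cre and control libraries.

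No receptor of these chemokines was called between genotypes. Of 15 CC chemokine receptor genes 9 passed the filter, of which 5 lay above and 4 below control (median log2 difference 0.22). By edgeR and DESeq2 0 were called, and 1 (Ccrl2) was higher at an unadjusted p under 0.05 in edgeR, against 6.54% of all tested genes. Ccr1, the receptor of Ccl3, Ccl6 and Ccl9, had 152, 161 and 158 CPM in the Cre libraries, against 184, 170.2 and 155 CPM in the control libraries. The groups overlapped through control library 3. Ccr2, the receptor of Ccl2 and Ccl7, averaged 14.7 ± 0.819 CPM in Cre libraries and 14.97 ± 1.45 CPM in control libraries (SD, n = 3 each).

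Ccrl2, an atypical receptor that binds the chemoattractant chemerin, had 74.5, 101.4 and 79.2 CPM in the Cre libraries, against 62.3, 61.5 and 76.4 CPM in the control libraries. The groups overlapped, and edgeR fitted a log2 difference of 0.35 ± 0.13 (SE; adjusted p 0.326). Ccr7, which guides migration to lymph nodes, averaged 2.12 ± 0.778 CPM in Cre libraries and 1.59 ± 0.419 CPM in control libraries. Ccr6 averaged 0.791 ± 0.411 and 0.618 ± 0.176 CPM, Ccr9 0.440 ± 0.282 and 0.505 ± 0.119 CPM, Ccr10 0.437 ± 0.145 and 0.375 ± 0.144 CPM, and the scavenging receptor Ackr4 0.235 ± 0.0634 and 0.265 ± 0.0453 CPM, in Cre and control libraries (SD, n = 3 each). Exons of other genes overlap 2223 of the 10260 exon bases of Ccr9 and 479 of the 5380 of Ackr4, where reads could be mixed. Ccr4, the receptor of Ccl17 and Ccl22, had 9, 7 and 5 counts in the Cre libraries, against 0, 4 and 5 counts in the control libraries. Ccr3, the receptor of Ccl24, had 0, 0 and 2 counts in the Cre libraries and 0 in each control library. Both were at or near the floor, so the macrophages held hardly any transcript of the receptors for these ligands.

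**Figure D4:**
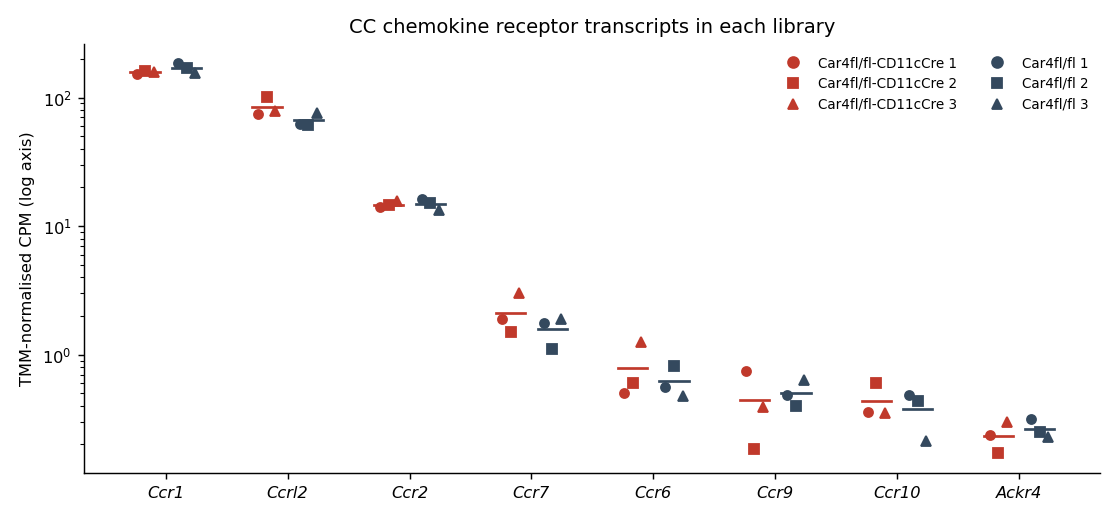
TMM-normalised CPM of 8 of the 9 tested CC chemokine receptor genes on a log axis, 1 point per library, with Car4fl/fl-CD11cCre in red on the left and Car4fl/fl in dark blue on the right of each gene and a bar at the group mean. The groups overlap for every receptor shown, and Ccr1 is the highest, between 152 and 184 CPM.

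Among genes known to govern CC chemokine transcripts edgeR called none. Of 15 genes of NF-kB and its feedback inhibitors 6 lay above and 9 below control (median log2 difference -0.02), 0 called by edgeR, and 3 with a higher and 0 with a lower mean at p under 0.05 before adjustment (6.54% and 6.28% of all tested genes). DESeq2 called 2 higher, Tnip1 (adjusted p 0.0296) and Tnip3, against 2.38% of all genes. The kinase gene Ikbkb averaged 216 ± 5.31 CPM in Cre libraries and 219.9 ± 5.22 CPM in control libraries, and the subunit gene Nfkb1 203 ± 14.3 and 208 ± 1.26 CPM. Tnip3, a feedback inhibitor of the pathway, had 0.964, 6.20 and 7.86 CPM in the Cre libraries, against 0.398, 0.582 and 0.299 CPM in the control libraries, and was called by DESeq2 (adjusted p 0.00206) but not by edgeR (0.147). Of 10 STAT6 and IRF genes 7 were above control, with a median of 0.05 and 1, Il4ra, higher at an unadjusted p under 0.05 (6.54% of all tested genes). Il4ra had 217, 222 and 256 CPM in the Cre libraries, against 199, 205 and 212 CPM in the control libraries (edgeR adjusted p 0.375). In this list 2 genes, Il4ra and Jak1, were higher without overlap (8.63% of all tested genes). Stat6, the transcription factor that IL-4 and IL-13 activate, averaged 318 ± 15.6 CPM in Cre libraries and 313 ± 6.84 CPM in control libraries, and the kinase gene Jak1 279.9 ± 3.20 and 271 ± 5.22 CPM. Tnip1, Tnip3 and Il4ra were named after their values were seen.

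Factors that bind AU-rich transcripts and steer their decay had 4 of 8 members above control, with a median of -0.02 and none at an unadjusted p under 0.05. Zfp36l2 averaged 893 ± 71.5 CPM in Cre libraries and 944 ± 61.0 CPM in control libraries, and Zfp36, the decay factor tristetraprolin, 414 ± 34.2 and 432 ± 14.7 CPM. Of 14 immediate early genes 5 were above and 9 below control, with a median of -0.10, 0 called by edgeR, and 1 with a higher and 4 with a lower mean at p under 0.05 before adjustment (6.54% and 6.28% of all tested genes). DESeq2 called 3 lower, Egr2, Ier2 and Nr4a1 (adjusted p 0.0132, 0.00656 and 0.0231; 1.42% of all genes). Fos averaged 1622 ± 309 and 1715 ± 330.4 CPM, and Junb 1154 ± 36.6 and 1293 ± 72.1 CPM, in Cre and control libraries (SD, n = 3 each).

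Genes of proteins that cut chemokines or bind the sugars that hold them had higher means in Cre libraries. Each of the 10 genes lay above control, the median being 1.23 on the log2 scale. edgeR called 0 and DESeq2 5 of them (2.38% of all genes), and 6 had p under 0.05 in edgeR before adjustment (6.54% of all genes). Mmp12, the macrophage elastase, had 23.9, 111 and 566 CPM in Cre libraries 1, 2 and 3, against 7.97, 4.85 and 4.84 CPM in the control libraries. Ctsc, a lysosomal protease, averaged 1239 ± 19.8 CPM in Cre libraries and 1237 ± 110.3 CPM in control libraries. Sdc4, a heparan sulfate proteoglycan of the cell surface, had 2.52, 7.22 and 8.71 CPM in the Cre libraries, against 1.16, 0.981 and 0.9503 CPM in the control libraries, and was named after its values were seen.

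Markers of interstitial macrophages, the macrophages of the lung tissue, were, in sum, highest in Cre libraries 2 and 3, as were Ccl9, Ccl17, Ccl24 and Ccl8. Of 13 markers 11 were above control, 8 of them at an unadjusted p under 0.05 (6.54% of all tested genes), and none was at 0 in every library. Their summed level was 485, 879 and 1561 CPM in Cre libraries 1, 2 and 3, against 522, 469.6 and 465 CPM in the control libraries, and Mmp12, described above, is one of the 13. Most of the control sum was Csf1r, at 401 ± 59.8 CPM in Cre libraries and 371 ± 33.5 CPM in control libraries (SD, n = 3 each). In Cre library 3 the sum was mostly Mmp12, Apoe and Csf1r. Apoe had 97.4, 250 and 505 CPM in the Cre libraries, against 92.8, 87.4 and 106 CPM in the control libraries. C1qa, a complement chain of these cells, had 1.88, 12.4 and 18.2 CPM in the Cre libraries, against 0.681, 1.01 and 0.722 CPM in the control libraries, whereas Folr2 and Lyve1 had lower means, at 0.268 ± 0.155 and 1.02 ± 0.721 CPM in Cre libraries and 0.383 ± 0.0428 and 1.19 ± 0.254 CPM in control libraries. B and plasma cell markers, all 8 of them above control, summed to 12.9, 22.2 and 47.6 CPM in the Cre libraries, against 14.0, 14.9 and 13.7 CPM in the control libraries. Of these 2 were higher without overlap (8.63% of all tested genes). Jchain, the largest part of the sum in Cre libraries 2 and 3, overlapped. It had 2.77, 8.37 and 27.5 CPM in the Cre libraries, against 2.77, 5.92 and 2.69 CPM in the control libraries. The alveolar macrophage list had 6 of 15 markers above control and summed to 27950 to 41480 CPM in Cre libraries and 22960 to 26360 CPM in control libraries, most of it Chil3. DESeq2 called 3 of this list higher (Marco, Itgax and Chil3) and 2 lower (Siglecf and Car4), against 2.38% and 1.42% of all genes. Classical monocyte markers summed to 1943 to 2576 CPM in Cre libraries and 2601 to 2815 CPM in control libraries, most of it Fn1, while 5 of the 9 lay above control with a median log2 difference of 0.018. Lung epithelium markers summed to 227 to 293 CPM in Cre libraries and 257 to 344 CPM in control libraries, with 6 of 9 above control. Of these 1 was higher without overlap (Cdh1) and 2 lower (Epcam and Ager), against 8.63% and 9.22% of all tested genes. Cdh1 averaged 143 ± 12.1 and 109 ± 7.09 CPM, and Epcam 24.7 ± 9.88 and 113 ± 52.3 CPM, in Cre and control libraries. Neutrophil markers summed to 101.3 to 110.5 and 86.0 to 95.5 CPM in Cre and control libraries, with Ly6g at 0. Most of that sum was Csf3r and Mmp8, whose groups each overlapped. Endothelium and fibroblast markers summed to 181 to 197 and 149.9 to 159 CPM in Cre and control libraries. Most of this was Vwf, at 161 ± 15.4 and 128 ± 9.93 CPM, the 1 marker of that list without overlap (8.63% of all tested genes higher). The part of other cells in the chemokine values was not tested.

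**Figure D5:**
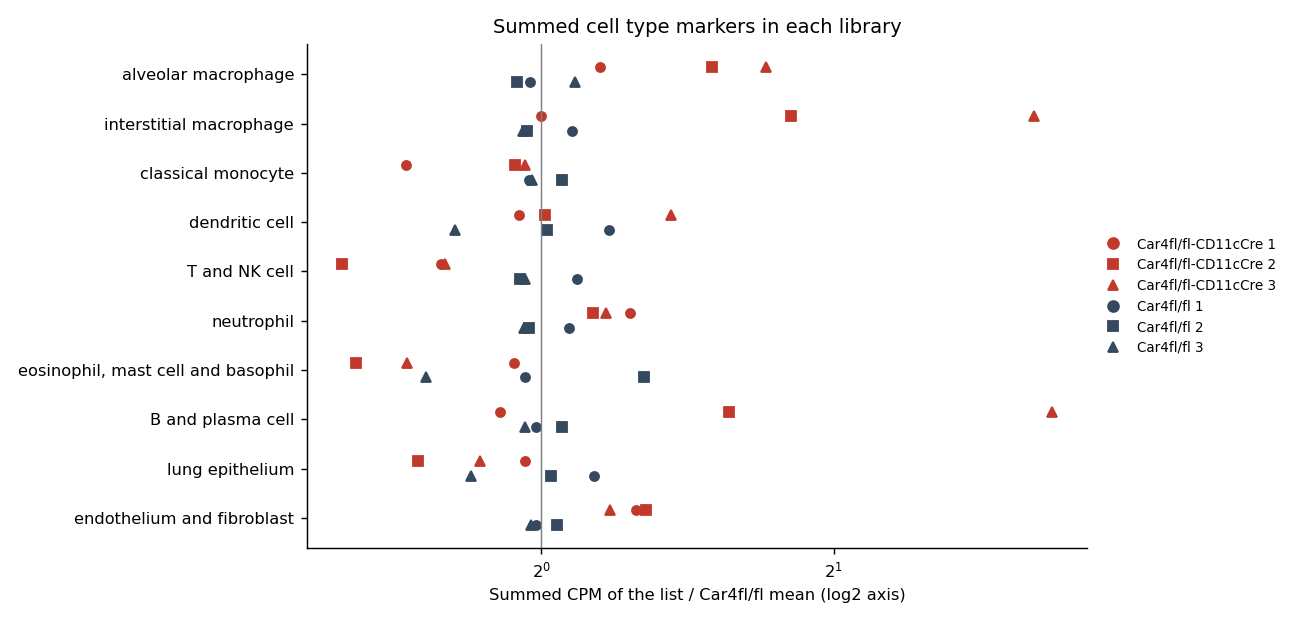
Summed CPM of each cell type marker list relative to its Car4fl/fl mean on a log2 axis, 1 point per library, with Car4fl/fl-CD11cCre in red above Car4fl/fl in dark blue for each list. Interstitial macrophage and B and plasma cell markers are highest in Cre library 3, at 1561 and 47.6 CPM in sum, while the dendritic cell list overlaps between the genotypes.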

How the data were processed

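The authors deposited whole-number counts per gene for 6 libraries, without normalization, 1 library per mouse. The submitters' processing notes name STAR 2.6.1, featureCounts 1.6.4, cutadapt 2.5, StringTie 2.0 and the build GRCm38, with no role or order. Neither the annotation release nor the strand setting is stated in the sources used here. Columns were assigned through the library names in the labels. Of 46078 gene rows 45229 were found in GENCODE M21, used for coordinates and exon lengths, and 849 were not. No pair of replicates agreed within sampling noise (chi-square per degree of freedom 21.7 to 57.5).

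The test was edgeR's quasi-likelihood test (edgeR 4.0.16 under R 4.3.3), two-sided and with no covariate, after filterByExpr with a minimum count of 10, which left 15147 genes, and TMM scaling. P-values were adjusted by Benjamini-Hochberg over these genes, with a threshold of 0.05. SE is the absolute log2 fold change over the square root of F. Where a symbol had several rows, the row with the most counts was used. Tried beside it were scaling by RLE, by the upper quartile or by library size alone, no filter, at least 5 CPM in 3 libraries, DESeq2 1.42.0, limma-voom (limma 3.58.1), robust dispersions, the replicate number as a block and leaving out each library, and newer glmQLFit settings, chosen after seeing the data. The code was tested on simulated data.

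The members and lists were chosen with earlier results of these data known. The naming rule was all members, the tested other CC chemokines and receptors, and the 2 most abundant tested genes of each other pathway list, with the 3 genes of highest r for the most abundant member and the member of smallest p among genes averaging 5 CPM or more. The values of 1 tested receptor are not reported here. Other genes and the markers given were picked after their values were seen. Plots were made in matplotlib 3.10.9 (Python 3.11.15).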

Additional observations from a re-analysis of the deposited data

How the results depend on the processing

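The counts of calls depended on the tool and on the filter. Against 0 of the 10 CC chemokines and 2 genes in all called by edgeR, no filter on low counts gave 3 (Ccl9, Ccl17 and Ccl24, against 1.23% of genes called higher) and 523, and DESeq2 gave 3 and 615. Robust dispersions gave 1 gene in all. Leaving out 1 library at a time gave 0 to 2 members and 1 to 286 genes, with both highest counts without Cre library 1, and 67 genes without control library 3. Nothing in the labels says that the replicate numbers pair the mice, and the deviations of same-numbered libraries correlated at -0.00977, -0.156 and 0.0691, so the numbers were not used for pairing. The replicate block gave 1 member, Ccl24 (adjusted p 0.0109, against 0.0528% of genes called higher), and 10 genes.

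Of 154 member values recomputed, 139 kept their direction and their side of the threshold, 1 (Ccl24 in DESeq2) kept its direction and had no adjusted p, 9 newly passed the threshold, and 5, all of Ccl7, changed sign. Ccl7 was at -0.0249 with limma-voom, -0.0007 with the newer glmQLFit settings, -0.0143 with the replicate block, and -0.47 to 0.28 without each library. With at least 5 CPM in 3 libraries only Ccl3, Ccl6, Ccl9 and Ccl22 were tested. Over the alternatives the adjusted p ran from 0.000192 to 0.468 for Ccl9, 0.0053 to 0.552 for Ccl17 and 0.0109 to 0.601 for Ccl24. Scaling moved the median of all genes by less than 0.1. The cause of these differences was not tested. Counts were lowest for Ccl7, with 38 in each group, and for Ccl24 in the controls, with 1, 2 and 9.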
